A study of Homo sapiens with 6 samples.

Results

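The transcripts described here encode DLST and the other subunits of the mitochondrial 2-oxoacid dehydrogenase complexes, measured in RNA that was pulled down with Stau1 from prometaphase cells. There are 10 of them among the 37879 targets of the array, and each was found by its gene symbol as exactly 1 target. DLST was selected on its measured difference between Stau1 IPs and control IPs in these same arrays. The other 9 were chosen by name because they belong to the same enzyme family, with that difference already known.

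The 2-oxoacid dehydrogenase complexes are large mitochondrial assemblies that decarboxylate a 2-oxoacid and pass its acyl group to coenzyme A. An E1 subunit removes carbon dioxide, an E2 subunit carries the acyl group on a lipoyl arm and forms the acyl-CoA, and the E3 subunit reoxidizes the lipoyl arm with NAD. The 2-oxoglutarate dehydrogenase complex works inside the citric acid cycle and is made of OGDH (E1), DLST (E2) and DLD (E3). The pyruvate dehydrogenase complex feeds acetyl-CoA into that cycle through PDHA1 and PDHB (E1), DLAT (E2) and PDHX, which anchors the E3. The branched-chain complex degrades the oxoacids of leucine, isoleucine and valine through BCKDHA and BCKDHB (E1) and DBT (E2). DLD is shared by all of these complexes.

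HEK293T cells, an established human embryonic kidney line, were transfected either with an empty vector or with plasmids that code for Stau155-FLAG, the 55-kDa form of the double-stranded RNA-binding protein Staufen1 with a FLAG tag. All cells, controls included, were held in prometaphase with the microtubule poison nocodazole at 50 ng/ml for 15 h by the labels (the methods give another duration). All extracts were immunoprecipitated with the same anti-FLAG antibody, and 3 control IPs and 3 Stau1 IPs were hybridized on 1 Illumina BeadChip array each. The protein came from transient transfection on top of the endogenous Stau1. The total RNA of these cells is not analysed here, so these arrays cannot tell a difference in pull-down from one in transcript abundance. The paper compared total RNA of Stau1- and vector-transfected prometaphase cells by array and reports that very few probes changed. Nothing in the labels says that the replicates came from separate cultures, so p-values measure only the spread between these arrays.

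The arrays did not all sort by their labels, and this bears on every value below. Between 11635 and 13054 targets were detected per array (detection p under 0.05), and 9884 were detected on all 6. Over these 9884 targets, which are not independent replicates, the normalized signals of Stau1 IP arrays 1 and 3 had a Pearson r of 0.996. The array labelled Stau1 IP 2 had an r of 0.937 and 0.940 with them, below its 0.975 with control IP 3, and the array labelled control IP 2 had 0.982 and 0.984 with Stau1 IP 1 and 3, beside 0.977 and 0.982 with control IP 1 and 3. The arrays labelled control IP 2 and Stau1 IP 2 may have been exchanged, which would change every group mean and difference, and this was not tested. Groups were kept as labelled, both arrays are given singly, and each member's difference is given with and without both. Both were singled out from these same data, so every p-value without them is descriptive and supports no call. Where 3 values are listed, they follow the replicate numbers 1, 2 and 3. STAU1 itself had its lowest signal, 1857, on the array labelled Stau1 IP 2 and 2499 to 3246 on the other 5. On control IP 1, at 2499, its detection p of 0.0542 missed the threshold, while that on Stau1 IP 2 was 0.00693. Whether the STAU1 probes read the transfected construct was not tested.

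DLST, the E2 of the 2-oxoglutarate dehydrogenase complex, carries the succinyl group to coenzyme A, and the file places it on the plus strand of chromosome 14. Its signal intensity was 604, 1559 and 738 in the control arrays, compared with 3212, 1454 and 4204 in the Stau1 arrays. The arrays fell on 3 levels, with control IP 1 and 3 low, both arrays numbered 2 in between, and Stau1 IP 1 and 3 high. The array labelled Stau1 IP 2 lay just below the one labelled control IP 2, so the groups overlapped in signal.

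Each DLST signal is a mean over 32 to 47 beads, with a standard error between beads of 2.42% to 5.39% of the signal. The arrays labelled control IP 2 and Stau1 IP 2 differed by -105 intensity units (Stau1 minus control), beside a combined bead error of 58.2. The difference between control IP 1 and 3 was 134 units, or 3.10 times its combined bead error. Bead error leaves out every step before hybridization and the scale of the array, so it is a lower limit of the real error.

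After background subtraction, variance stabilization and robust spline normalization, the DLST level on the log2 scale was 9.66, 10.66 and 9.89 after control pull-down and 11.94, 10.52 and 12.11 after Stau1 pull-down. The group means were 10.07 ± 0.52 (SD, n = 3) and 11.52 ± 0.87 (SD, n = 3). The difference was 1.45 on the log2 scale, a fold of 2.74. It is a description without a test, since it chose the gene. A fold above 2.5 was reached by 9 targets, 0.0238% of all, among which DLST ranked 5 by the size of its difference. Since this contrast chose DLST, nothing is read from that count.

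Without both arrays numbered 2, the DLST difference was 2.25 on the log2 scale. Whether the groups overlapped depended on the normalization. On the reported scale Stau1 IP 2 minus control IP 2 was -0.14, and it was -0.16 with median centring and -0.09 with no between-array normalization. It was 0.17 with quantile normalization and 0.24 with neqc, and under these 2 settings every Stau1 IP array lay above every control IP array.

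**Figure D1:**
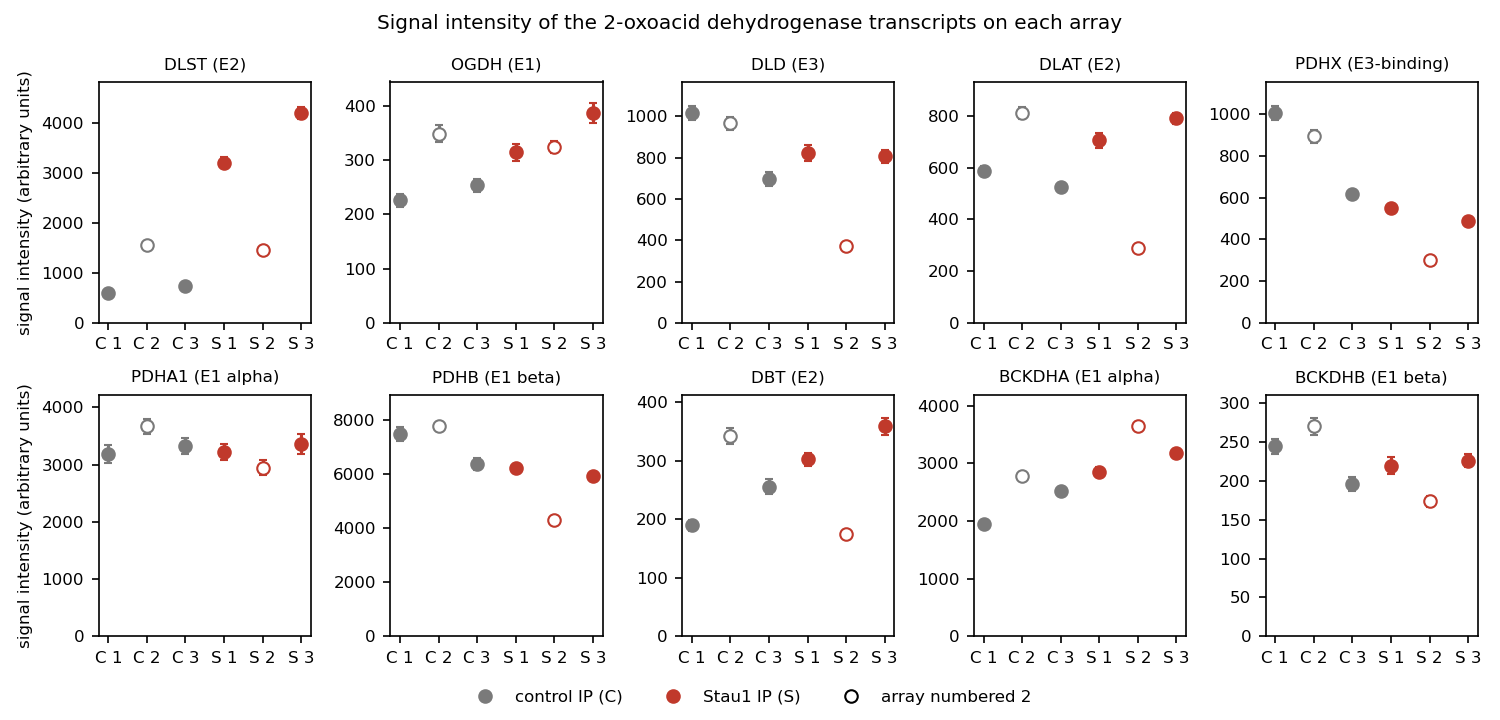
Signal intensity as deposited (y axis, arbitrary units, from 0) of the 10 transcripts on each array (x axis, C for control IP and S for Stau1 IP, by replicate number), with bars for the standard error between beads and open symbols for the arrays numbered 2. DLST is at 3212 and 4204 on S 1 and S 3 and at 604 to 1559 on the other 4 arrays, while DLD, DLAT and PDHX are lowest on S 2.

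None of the other members came close to the DLST profile by a measure that counts the size of the changes as well as their order. OGDH had the same order of arrays, as given below. Likeness was measured as the root mean square difference between mean-centred normalized log2 levels over the 6 arrays, among 9443 other targets with a symbol that were detected on all of them. The closest of the members were DBT at 0.79, rank 1929, and OGDH at 0.80, rank 2058, and the farthest was PDHX at 1.29, rank 9143. The closest 5 targets on the array were C19orf25 at 0.25, C19orf22 at 0.25, ST6GALNAC4 at 0.26, TRMT61A at 0.27 and LOC649095 at 0.27.

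These 5 shared with DLST a high level on Stau1 IP 1 and 3 and a low one on control IP 1 and 3. None of them is a subunit of the complexes; ST6GALNAC4 encodes a sialyltransferase and TRMT61A a tRNA methyltransferase subunit. C19orf22 had a signal of 1838, 4206 and 2185 for the controls against 6647, 3321 and 7357 with Stau1. In all 5 the array labelled Stau1 IP 2 was below the one labelled control IP 2, as in DLST. They were picked for their likeness, so their values carry no test.

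**Figure D2:**
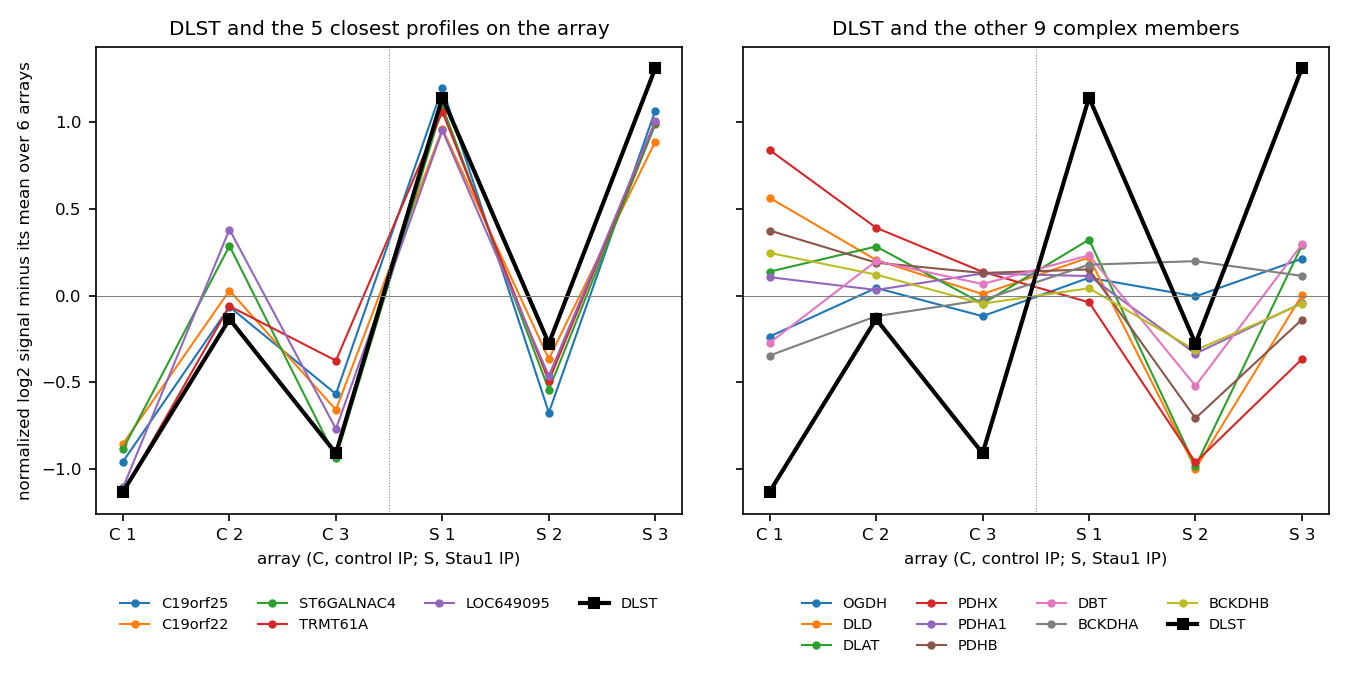
Normalized log2 signal minus its mean over the 6 arrays (y axis) for DLST in black and, on the left, the 5 targets with the closest profile and, on the right, the other 9 members, by array (x axis, C for control IP and S for Stau1 IP). DLST spans -1.13 on C 1 to 1.31 on S 3, and among the other members PDHX spans 0.84 on C 1 to -0.96 on S 2.

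OGDH, the E1 that decarboxylates 2-oxoglutarate and sets the pace of its complex, lies on chromosome 7. Its signal was 225, 348 and 253 in the control arrays, compared with 314, 324 and 386 in the Stau1 arrays, so the groups overlapped through control IP 2. The order of the 6 arrays in normalized level was the same as for DLST, from Stau1 IP 3 at the top to control IP 1 at the bottom, within a much smaller range. The log2 difference was 0.21 (95% confidence interval -0.02 to 0.44, adjusted p = 0.708 from limma). Without the arrays numbered 2 it was 0.34 (0.15 to 0.52, adjusted p = 0.0942 from limma).

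DLD, the flavoprotein E3 of all the complexes, also lies on chromosome 7. Its signal was 1017, 967 and 696 after control pull-down and 823, 375 and 807 after Stau1 pull-down. The array labelled Stau1 IP 2 was far below the other 5, which overlapped between the groups. The log2 difference of -0.52 (-1.41 to 0.37, adjusted p = 0.828 from limma) was -0.18 (-0.78 to 0.43) without the arrays numbered 2. Over all 6 arrays, the confidence intervals of both partners of DLST in its own complex included 0, with estimates of opposite sign.

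Among the subunits of the pyruvate dehydrogenase complex, PDHX was the one whose groups did not overlap either in signal or after normalization. PDHX, on chromosome 11, binds the E3 to the core and, like the E2 subunits, carries a lipoyl domain. Its signal was 1006, 895 and 616 for the controls against 549, 301 and 489 with Stau1, so every Stau1 IP array lay below every control IP array. The normalized level was 9.97 ± 0.36 (SD, n = 3) with empty vector against 9.05 ± 0.47 (SD, n = 3) with Stau1. The log2 difference was -0.91, with a confidence interval of -1.65 to -0.17, and the adjusted p was 0.589 from limma. The level in Stau1 IPs was thus 1.88-fold lower in the mean, and without the arrays numbered 2 the log2 difference was -0.69 (-1.47 to 0.09, adjusted p = 0.361 from limma).

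DLAT, the acetyl-transferring E2, is also on chromosome 11. Its signal was 585, 811 and 525 in the control arrays, compared with 705, 289 and 790 in the Stau1 arrays. Stau1 IP 2 had the lowest and control IP 2 the highest signal, though Stau1 IP 1 was highest after normalization. The log2 difference was -0.25 (-1.21 to 0.71, adjusted p = 0.931 from limma) over all arrays. It was 0.18 without Stau1 IP 2 alone and -0.17 without control IP 2 alone. Without both it was 0.26 (0.05 to 0.47, adjusted p = 0.202 from limma).

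PDHA1, the X-linked catalytic alpha subunit, had 3193, 3664 and 3327 after control pull-down and 3216, 2946 and 3355 after Stau1 pull-down. All 6 values were within 1.24-fold of each other, and the log2 difference was -0.18 (-0.47 to 0.12, adjusted p = 0.822 from limma), and -0.08 (-0.27 to 0.10) without the arrays numbered 2. PDHB, the beta subunit on chromosome 3, had 7465, 7752 and 6360 for the controls against 6204, 4306 and 5911 with Stau1. Its signal was lower on each Stau1 IP array than on any control IP array, but after normalization Stau1 IP 1 lay above control IP 3, and the log2 difference was -0.46 (-1.04 to 0.11, adjusted p = 0.739 from limma), against -0.25 (-0.64 to 0.14) without the arrays numbered 2.

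BCKDHA, the catalytic alpha subunit of the branched-chain E1 on chromosome 19, was the one member with every Stau1 IP array above every control IP array, in signal and after normalization. Its signal was 1939, 2785 and 2518 in the control arrays, compared with 2855, 3637 and 3174 in the Stau1 arrays. Stau1 IP 2 had the highest signal here, whereas it had the lowest for 7 of the other members. The normalized level was 11.43 ± 0.16 (SD, n = 3) with empty vector against 11.76 ± 0.04 (SD, n = 3) with Stau1, a log2 difference of 0.33 (0.11 to 0.55, adjusted p = 0.511 from limma). Without the arrays numbered 2 it was again 0.33 (-0.01 to 0.67, adjusted p = 0.309 from limma).

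BCKDHB, the beta subunit on chromosome 6, had a difference of the opposite sign. Its signal was 244, 270 and 195 after control pull-down and 219, 174 and 226 after Stau1 pull-down, with a log2 difference of -0.21 (-0.52 to 0.09, adjusted p = 0.780 from limma), and -0.10 (-0.42 to 0.22) without the arrays numbered 2. DBT, the E2 of the branched-chain complex on chromosome 1, had 189, 342 and 255 for the controls against 302, 174 and 358 with Stau1. It was the one member not detected on every array, since it missed the threshold on Stau1 IP 2 with a detection p of 0.0521. The DBT difference was 0.0044 (-0.64 to 0.65, adjusted p = 0.999 from limma) and became 0.37 (0.01 to 0.72, adjusted p = 0.285 from limma) without the arrays numbered 2. The bead numbers of OGDH, DBT and BCKDHB are not whole, so more than 1 probe was averaged into each of these targets, and transcript forms within them cannot be separated.

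**Figure D3:**
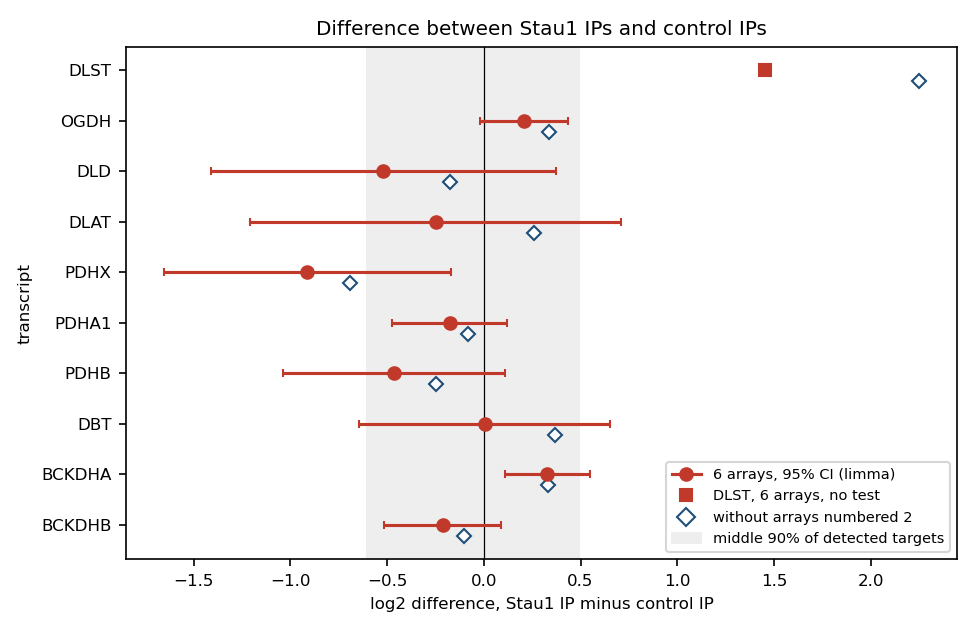
Log2 difference between Stau1 IPs and control IPs (x axis) for each transcript (y axis), with 95% confidence intervals from limma for the 9 members other than DLST, open diamonds for the difference without the arrays numbered 2, and a grey band for the middle 90% of the 9884 targets detected on all arrays (-0.60 to 0.49). DLST at 1.45 and PDHX at -0.91 lie outside the band.

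Across the 9 members other than DLST, 1 was higher (BCKDHA) and 1 was lower (PDHX) in Stau1 IPs at an unadjusted p under 0.05 from limma, where 2.24% and 5.22% of all targets were. BCKDHA was also the 1 member with every Stau1 IP array above every control IP array, as for 4.98% of all targets, and PDHX the 1 with every Stau1 IP array below, as for 8.48%. A count of 1 among 9 members is the smallest above 0, and nothing about the members as a group is read from it. After Benjamini-Hochberg adjustment in limma, 0 members passed, as did 0% of all targets, while 2829 targets had an unadjusted p under 0.05 from limma and 2580 by the methods' t-test. The exact permutation test over the arrays, two-sided, gave p = 0.1 for BCKDHA and for PDHX, which is the smallest that 3 arrays against 3 allow, and 0.2 to 1 for the others. Without both arrays numbered 2, OGDH, DLAT and DBT had an unadjusted p under 0.05, where 16.8% of all targets did. None of the 9 members then passed the adjusted p, against 4.74% of all targets.

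The mean of Stau1 IPs was above that of control IPs for 3 of the 9 members and below it for 6. Their median log2 difference was -0.21, beside -0.04 for the targets detected on all arrays and -0.00068 for all targets, and it was -0.08 without the arrays numbered 2. Stau1 IP 2 was the lowest of the 6 arrays for 7 of the 9, namely DLD, DLAT, PDHX, PDHA1, PDHB, DBT and BCKDHB, as it was for 47.0% of the targets detected on all arrays. The median deviation of the 9 members from their means was -0.52 on that array, against -0.19 for the targets detected on all arrays. On the other 5 arrays it was between 0.0018 and 0.19. Without that array alone, the difference was -0.15 for DLD, -0.66 for PDHX and -0.23 for PDHB.

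Of 48 further genes of these pathways, 47 had a target, and 43 were detected on at least 3 arrays. At an unadjusted p under 0.05 from limma, 2 of the 47 (4.26%) were higher and 4 (8.51%) were lower in Stau1 IPs, near the shares for all targets given above, and 0 passed the adjusted p. Without both arrays numbered 2, 5 of the 47 (10.6%) passed it, namely SUCLG2, NDUFAB1, DHTKD1, PDP2 and BCAT1. The share of all targets was 4.74%, but these include many that were not detected, so the shares are not alike. Over all arrays, 11.8% of targets detected on at least 3 arrays had an unadjusted p under 0.05 from limma, beside 7.47% of all. No such share was taken without the arrays numbered 2, and nothing is read from this count. The median log2 difference of the 47 over all arrays was -0.04. In the kinases and phosphatases that switch the complexes off and on, 1 of 9 had an unadjusted p under 0.05. This was PDK2, a pyruvate dehydrogenase kinase, with signals of 168, 261 and 193 in the control arrays, compared with 278, 285 and 298 in the Stau1 arrays. Its log2 difference was 0.35 (adjusted p = 0.478 from limma). BCKDK, the kinase of the branched-chain complex, differed by 0.01 on the log2 scale. PDP2, a pyruvate dehydrogenase phosphatase, differed by 0.22 (adjusted p = 0.851 from limma), and by 0.48 without the arrays numbered 2 (adjusted p = 0.0411 from limma).

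The citric acid cycle held the largest difference among these lists, in a neighbour of the DLST reaction. SUCLG2, a subunit of the succinyl-CoA ligase that uses the product of DLST, had signals of 1275, 1307 and 1239 after control pull-down and 718, 710 and 790 after Stau1 pull-down. All 3 Stau1 IP arrays lay well below all control IP arrays, and here the arrays numbered 2 stood with their labelled groups. The normalized level was 10.56 ± 0.13 (SD, n = 3) and 9.73 ± 0.13 (SD, n = 3), a log2 difference of -0.83 (standard error 0.10, adjusted p = 0.431 from limma). Without the arrays numbered 2 the difference was again -0.83 and the adjusted p was 0.0144 from limma. SUCLA2, another succinyl-CoA ligase subunit, had -0.71 (adjusted p = 0.686 from limma), and -0.55 (-1.45 to 0.34, adjusted p = 0.562 from limma) without the arrays numbered 2. SUCLG1, the alpha subunit, had -0.12, and -0.44 (-0.82 to -0.05, adjusted p = 0.236 from limma) without the arrays numbered 2.

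All 15 transcripts of the cycle were detected on every array. Of these, 2 had an unadjusted p under 0.05 from limma, and both were lower in Stau1 IPs. Their share was 13.3%, beside 5.22% of all targets, detected or not, and nothing is read from these unlike shares. The second was SDHB, the iron-sulfur subunit of succinate dehydrogenase, at -0.34 on the log2 scale (adjusted p = 0.656 from limma). Its signal on Stau1 IP 2 was 8084, above the 7858 and 7812 of control IP 2 and 3, and was below both of them after normalization. SDHC, a subunit of the same enzyme, went the other way, at 0.39 (adjusted p = 0.678 from limma). Without the arrays numbered 2 the SDHC difference was 0.60 (adjusted p = 0.0828 from limma). The remaining subunits, SDHA and SDHD, had -0.15 and -0.65 over all arrays (adjusted p = 0.788 and 0.791 from limma). The list's median was -0.12, and CS, citrate synthase, and MDH2, malate dehydrogenase, differed by 0.01 and -0.05.

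The lipoyl arm is made from a product of mitochondrial fatty acid synthesis, and 1 of the 6 transcripts of that list had an unadjusted p under 0.05. This was NDUFAB1, the acyl carrier protein, with signals of 5084, 4833 and 4956 for the controls against 3558, 3843 and 3651 with Stau1. The groups did not overlap, and the log2 difference was -0.50 (adjusted p = 0.477 from limma). Without the arrays numbered 2 it was -0.55 (adjusted p = 0.0468 from limma). LIAS, lipoic acid synthase, had -0.33 (adjusted p = 0.716 from limma). LIPT2 had no target.

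In the supply of pyruvate, 1 of 6 had an unadjusted p under 0.05. This was MPC1, a subunit of the mitochondrial pyruvate carrier that the file lists under an older symbol, at -0.36 on the log2 scale (adjusted p = 0.528 from limma). In branched-chain catabolism, 1 of 5 did, namely BCAT2, the mitochondrial branched-chain aminotransferase that makes the substrates of the BCKDHA complex. Its signal was 2627, 3044 and 3109 in the control arrays, compared with 3351, 3989 and 3562 in the Stau1 arrays. The log2 difference of 0.22 (adjusted p = 0.625 from limma) had the sign of that of BCKDHA. BCAT1, the cytosolic aminotransferase, differed by -0.10 over all arrays (adjusted p = 0.978 from limma) and by 0.57 without those numbered 2 (adjusted p = 0.0153 from limma).

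In the glycine cleavage system, which shares DLD with the complexes, 0 of 3 had an unadjusted p under 0.05. GLDC, its decarboxylase, differed by -0.17 (adjusted p = 0.917 from limma), by 0.084 without Stau1 IP 2 and by 0.15 without both arrays numbered 2. GCSH, its lipoyl protein, was detected on no array. Among the paralogs of the E1 subunits, 0 of 3 did. DHTKD1, the E1 for 2-oxoadipate that works with DLST, differed by 0.13 over all arrays (adjusted p = 0.927 from limma). Its signal was 193, 273 and 188 after control pull-down and 270, 180 and 319 after Stau1 pull-down. The arrays numbered 2 stood opposite to their labelled groups, so leaving them out favours a lower p. Without them the difference was 0.40 (adjusted p = 0.0302 from limma).

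**Figure D4:**
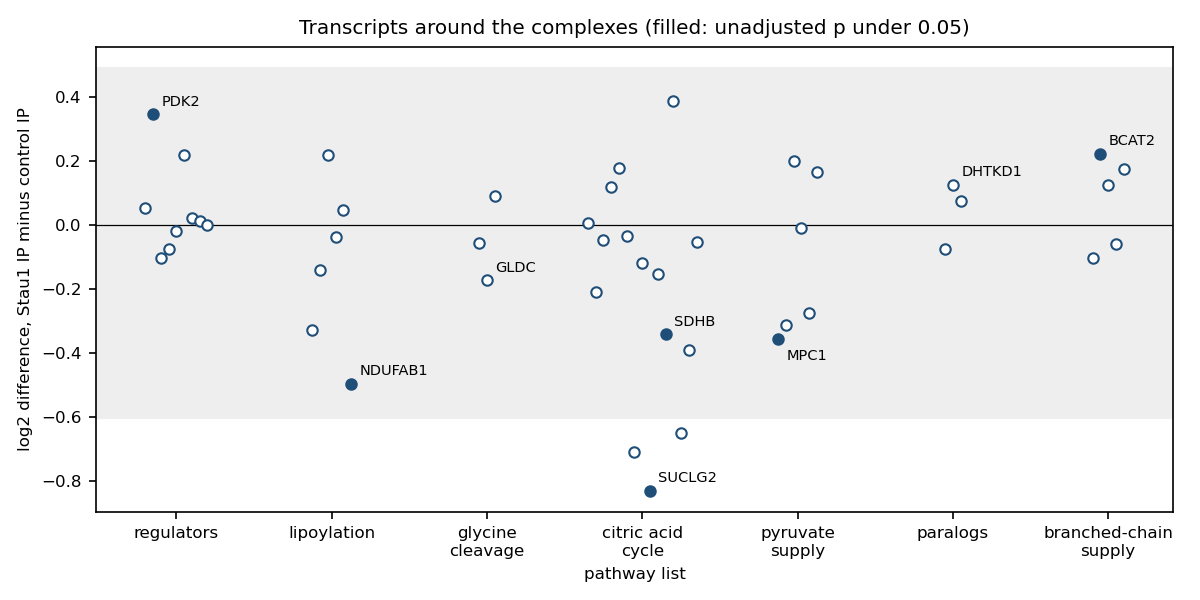
Log2 difference between Stau1 IPs and control IPs (y axis) for the 47 pathway targets, by list (x axis), with filled symbols for an unadjusted p under 0.05 from limma and the grey band for the middle 90% of targets detected on all arrays (-0.60 to 0.49). SUCLG2 at -0.83 is the lowest point, and 4 of the 6 filled symbols lie below 0.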

How the data were processed

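RNA from 3 control IPs and 3 Stau1 IPs was measured on HumanWG-6 BeadChips. The authors deposited signal intensities as BeadStudio wrote them, with no background subtraction or normalization and the probes of each gene combined. All columns of values belong to the 6 arrays. The deposited table gives, too, bead numbers, bead standard errors (as intensity) and a detection p-value against the negative controls of the array. The genome build is not given in the sources used here.

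From these intensities, a background was subtracted, taken as the median of those 200 targets whose detection p was nearest 0.5. A variance stabilizing transformation was fitted to the bead SD over 500 bins on relative errors, without the lowest 33.3% of signals. Arrays were then scaled to control IP 2 with monotone splines of 10 knots. These steps rebuild those named in the study's methods, whose software was not used, and act as log2 of the signal plus 116 to 160 units, so changes of dim transcripts are understated. All targets were fitted with lmFit and eBayes (limma 3.58.1, mgcv 1.9.3, R 4.3.3), with p-values adjusted over all 37879, and plots used Python 3.11.15 and matplotlib 3.10.9. The scripts were tested on simulated data.

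Pathway genes were named when their unadjusted p was under 0.05 or when they had the largest difference in their list among targets detected on at least 3 arrays, and all members were named, with the 5 targets most like DLST. Values of BCKDK, PDP2, CS, MDH2, SDHA, SDHC, SDHD, SUCLA2, SUCLG1, LIAS and BCAT1 were added after they had been seen. The members, lists and tests were chosen with earlier results of these data known. The alternatives are given in the closing section. No probe sequence was at hand, and none is shown.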

Additional observations from a re-analysis of the deposited data

How the results depend on the processing

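The DLST difference stayed between 1.45 and 1.96 on the log2 scale under median centring, quantile normalization, neqc, background left in, arrays not normalized to each other, a filter to targets detected on at least 3 arrays and a replicate block (1.45, with the same 2 other members under an unadjusted p of 0.05). Same-numbered arrays deviated from their group means with correlations of -0.46, -0.76 and -0.36. Since the arrays numbered 2 may be exchanged, these values cannot show whether same-numbered arrays were paired. Leaving out single arrays gave 1.16 (without Stau1 IP 3) to 1.96 (without Stau1 IP 2), and leaving out both arrays numbered 2 gave 2.25. The number of the other 9 members with an unadjusted p under 0.05, 2 as reported, was 4 with quantile normalization, 1 with the methods' t-test and 3 under neqc, with no between-array normalization and with both arrays numbered 2 left out. It was 1 to 4 without single arrays (1 without control IP 1 or Stau1 IP 3, 4 without Stau1 IP 1). BCKDHA was among them in 14 of 15 alternatives and PDHX in 10. PDHX passed the adjusted p with no between-array normalization (log2 difference -0.82, adjusted p = 0.0190 from limma), and in no other alternative did any of the 9 pass.

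Among the members and the pathway genes named by rule, signs turned for DLAT, DBT and GLDC. Of the genes added after they had been seen, BCAT1 turned from -0.10 to 0.57 without both arrays numbered 2, and CS from 0.0075 to -0.080. DLAT was -0.47 to 0.18 over single arrays left out, positive without Stau1 IP 2, and 0.26 without both arrays numbered 2. DBT was -0.14 to 0.27, negative without control IP 1 (-0.13), Stau1 IP 1 (-0.11) or Stau1 IP 3 (-0.14). GLDC was -0.34 to 0.084, positive without Stau1 IP 2, and 0.15 without both. The causes were not tested. Over all targets, 2829 had an unadjusted p under 0.05 from limma as reported, 5388 without Stau1 IP 2 and 6370 without both arrays numbered 2, and 401 passed the adjusted p with no between-array normalization, where the median of all targets shifted by 0.11. The number of arrays limits the precision, and DBT missed the detection threshold on Stau1 IP 2.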
